A study of Zea mays with 12 samples.

Results

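The glossy genes gl1, gl2, gl4, gl8 and gl15, whose mutants have shiny seedling leaves, were followed in the maize inbred line B73, as 5 of the 43788 B73 gene models measured. The rule that chose them uses identifiers and no measured value, though earlier results of these data were known when it was set. They are Zm00001d020557 (gl1), Zm00001d002353 (gl2), Zm00001d051787 (gl4), Zm00001d017111 (gl8) and Zm00001d046621 (gl15). All groups used here were 14-day-old B73 plants under a photoperiod of 16 h at 28 °C and a night of 8 h at 25 °C, with no transgene or treatment named. The B73 groups were 2 total RNA libraries, 2 libraries of RNA bound to polysomes and 2 m6A-seq samples, in which an antibody enriches fragments that carry N6-methyladenosine. The other 6 of the 12 samples came from the inbred line Mo17, whose gene identifiers are not paired with those of B73, and were not analysed here. The labels call the tissue seedlings and do not say which organs were taken, nor whether the replicates are separate plants, so the p-values here cover a spread that could be purely technical.

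Juvenile maize leaves carry a dense layer of wax crystals on the epidermis that sheds water, and plants that lack it hold droplets and look glossy. The wax starts from fatty acids that an elongase complex of the endoplasmic reticulum lengthens to very long chains, which are then turned into aldehydes, alcohols and other products and exported to the cuticle. Synthesis of this wax is a trait of the juvenile phase: in the passage to adult leaves it is switched off along with other epidermal traits. The gene gl4 encodes a 3-ketoacyl-CoA synthase, the condensing enzyme of the elongase, and gl8 encodes the 3-ketoacyl reductase of the same cycle. The product of gl2 is a BAHD acyltransferase family protein related to Arabidopsis CER2, which acts in the elongation of the longest chains. The product of gl1 is related to Arabidopsis CER3, which acts in the conversion of the elongated chains to alkanes. The gene gl15 is the regulator among them, an APETALA2-like transcription factor that maintains juvenile epidermal traits and is repressed by the microRNA miR172.

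The names were checked as far as the reference table allowed. It gives a gene of this name for 4 of the 5 (gl1, gl2, gl8 and gl15, not gl4), and all 4 lie on the chromosome that the expression tables give for the identifier. It holds the identifiers of 0 B73 gene models, so the names rest on the member list and on this match. For the same reason markers of leaf tissue were not checked. In the expression tables, in B73 RefGen_v4 coordinates, gl1 spans chr7:122228805-122234943 on the plus strand, gl2 spans chr2:10743536-10746206 on the minus strand and gl4 spans chr4:169781767-169783224 on the plus strand. The gl8 span is chr5:185769105-185772037 on the minus strand, and that of gl15 is chr9:99138564-99141663 on the plus strand. The spans, introns included, run from 1458 bp for gl4 through 2671 bp for gl2, 2933 bp for gl8 and 3100 bp for gl15 to 6139 bp for gl1. None of the 5 overlaps another annotated feature. The closest neighbour was at gl8, 244 bp past its 3′ end on the opposite strand, with a mean total RNA level of 0.177 FPKM. FPKM, as the authors gave them, are by definition scaled by gene length and library size. Levels of different genes are set side by side on that scale, with the caveat that the lengths used are not stated. The number of reads behind each value is unknown.

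Total RNA of the wax synthesis genes was abundant, and that of the regulator was low. The acyltransferase-like gl2 was highest, at 78.7 and 84.7 FPKM in the 2 total RNA libraries (mean 81.7 ± 4.25, SD, n = 2). The condensing enzyme gl4 followed at 62.0 and 66.7 FPKM (64.4 ± 3.32, SD, n = 2), and gl1 at 49.8 and 49.1 FPKM (49.5 ± 0.494, SD, n = 2). The reductase gl8 stood lower, at 14.5 and 14.2 FPKM (14.3 ± 0.162, SD, n = 2). The regulator gl15 had 4.22 and 3.74 FPKM (3.98 ± 0.340, SD, n = 2). In this order no gene's libraries overlapped those of its neighbour, though with 2 libraries each no test of the order was made. Of the elongase genes followed here, gl4 thus stood above gl8 in both libraries. Any other genes for the same steps could not be identified in these data, so the steps themselves are not compared.

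Among the 17218 B73 gene models expressed in total RNA (at least 1 FPKM in both libraries), the 4 wax synthesis genes ranked above the 75th percentile. The mean level of gl2 was above 96.5% of them, that of gl4 above 95.5%, that of gl1 above 94.0% and that of gl8 above 77.3%. The gl15 transcript was above 39.2%. In bulk RNA of seedlings a smaller share of epidermal cells and less RNA per cell cannot be told apart, so these ranks say nothing of the level in the epidermis itself.

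**Figure D1:**
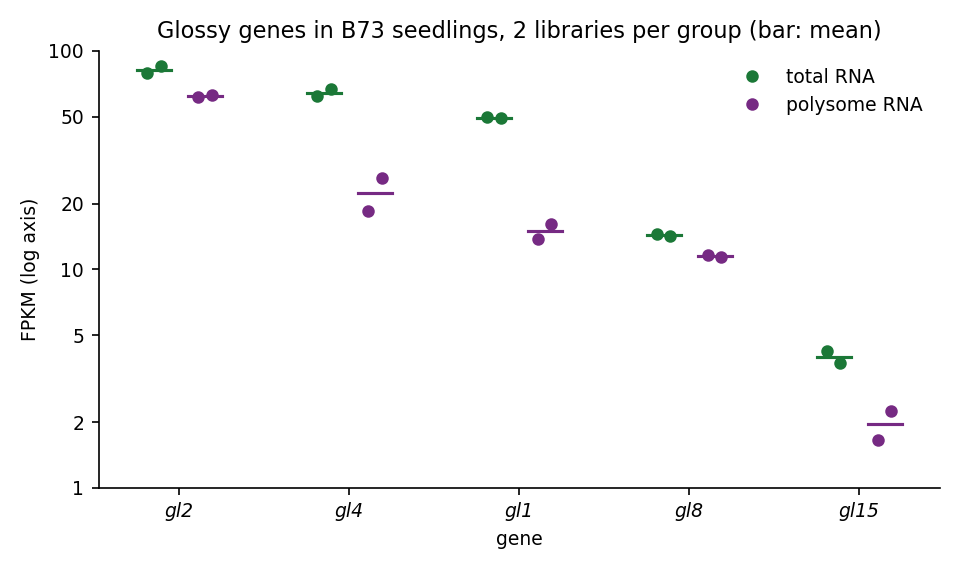
FPKM (log axis) of each glossy gene in the 2 total RNA libraries (green) and the 2 polysome libraries (purple) of B73, 1 point per library, with bars at the means. In all 5 genes both polysome points lie below both total RNA points, with the widest gaps in gl1 and gl4 and the narrowest in gl8.

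All 5 transcripts had lower FPKM in polysomes than in total RNA, to very different degrees. The genes gl1 and gl4 stood at about 30.1% and 34.6% of their total RNA level, and gl2 and gl8 at 75.8% and 80.2%. These percentages, and those of the pairs of libraries below, compare FPKM as deposited. They are not the share of a transcript that is bound to polysomes, and they change with the library scaling described below. In each of the 5, both polysome libraries lay below both total RNA libraries. That was so for 23.1% of the 19342 features tested. The log2 ratio itself was below 0 in 5 of the 5 and in 34.8% of all features tested.

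In the elongase, the condensing enzyme gl4 had 18.5 and 26.1 FPKM in the 2 polysome libraries (22.3 ± 5.37, SD, n = 2). Its log2 polysome to total RNA ratio, on the scale of log2(FPKM + 1), was -1.51 ± 0.20 (SE; 95% interval -1.99 to -1.03; limma adjusted p = 0.00237). The polysome replicates of gl4 were the farthest apart among the 4 wax synthesis genes, and without polysome replicate 1 or 2 the ratio was -1.27 or -1.75. With 1 polysome library left its spread is taken from the total RNA libraries, so these are values rather than a check of the call. The reductase gl8 had 11.6 and 11.4 FPKM in polysome RNA (11.5 ± 0.0921, SD, n = 2). Its log2 ratio of -0.29 ± 0.17 (SE) fell short of the test, with a limma adjusted p of 0.207, and its 95% interval, -0.70 to 0.11, includes 0. That depends on how libraries are scaled: the ratio of gl8 was -0.67 (interval -1.05 to -0.30, limma adjusted p = 0.0222) with median of log ratios scaling and -0.87 (interval -1.29 to -0.45, limma adjusted p = 0.0134) with an equal sum over gene models. Both enzymes act in the same cycle, and their ratios lay far apart: the 4 possible pairs of a polysome and a total RNA library put gl4 between 27.7% and 42.0% of its total RNA level and gl8 between 79.2% and 81.3%. This difference between the genes was not tested.

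The acyltransferase-like gl2 kept a high level in polysomes, at 61.5 and 62.5 FPKM (62.0 ± 0.702, SD, n = 2). Its log2 ratio was -0.39 ± 0.14 (SE; 95% interval -0.74 to -0.05), and it did not pass after adjustment over all features (limma adjusted p = 0.0709). The pairs of libraries put gl2 between 72.5% and 79.3% of its total RNA level, a range that meets that of gl8.

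The gene gl1 had the lowest ratio of the 5. Its polysome level was 13.8 and 16.1 FPKM (14.9 ± 1.63, SD, n = 2), against 49.8 and 49.1 in total RNA. The log2 ratio was -1.67 ± 0.17 (SE; 95% interval -2.07 to -1.27; limma adjusted p = 9.13e-04), and the pairs of libraries put gl1 between 27.6% and 32.7% of its total RNA level. Of the 18878 gene models tested, 1.11% had a lower ratio than gl1 and 1.32% a lower ratio than gl4. The same shares were 15.9% for gl2 and 19.8% for gl8.

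The regulator gl15 had 1.66 and 2.26 FPKM in polysome RNA (1.96 ± 0.422, SD, n = 2), or 49.3% of its total RNA level. Its pairs of libraries spread the most, from 39.4% to 60.4%. The log2 ratio was -0.76 ± 0.22 (SE; 95% interval -1.27 to -0.24), with a limma adjusted p of 0.0324. It missed the minimum change that a call required, and the p itself rose past 0.05 without total RNA replicate 1 (0.133), total RNA replicate 2 (0.0611) or polysome replicate 1 (0.0969), and with no filter on low values (0.0735). The size of this ratio depends on the value added to FPKM. With 0.5 or 0.1 in place of 1 the log2 ratio of gl15 was -0.87 or -0.998, still short of a call. Of the gene models tested, 6.45% had a lower ratio at the main setting.

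By the full call, an adjusted p under 0.05 with a log2 ratio of at most -1, 2 of the 5 (gl1 and gl4) fell, against 5.36% of all features tested, and none rose, against 16.6%. By the adjusted p alone 3 of the 5 (gl15 as well) were lower, against 9.95%, and this count depends on the scaling described below. The median log2 ratio of the 5 was -0.76, and that of all features tested was 0.29, so each of the 5 stood further below the typical transcript than below 0. Relative to that median the log2 ratio was -1.96 for gl1, -1.80 for gl4, -1.05 for gl15, -0.68 for gl2 and -0.59 for gl8. The composition of the libraries moved with the groups: B73 gene models held 39.4% and 37.9% of the FPKM of the total RNA libraries and 73.5% and 74.2% of those of the polysome libraries. Scaled to an equal sum over gene models, which brings the median of all features to -0.19, the log2 ratios were -2.26 for gl1, -2.11 for gl4, -1.21 for gl15, -1.001 for gl2 and -0.87 for gl8. At that scaling 4 of the 5 passed the call (all but gl8), against 13.0% of all features, and 60.7% of all features had a ratio below 0. With median of log ratios scaling, where the median was -0.03, the ratios ran from -2.06 for gl1 to -0.67 for gl8 and 3 passed (gl1, gl4 and gl15), against 9.18%, with 51.8% of all features below 0. By the adjusted p alone 5 of the 5 were lower at either scaling, against 23.2% of all features with an equal sum and 19.6% with median of log ratios.

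**Figure D2:**
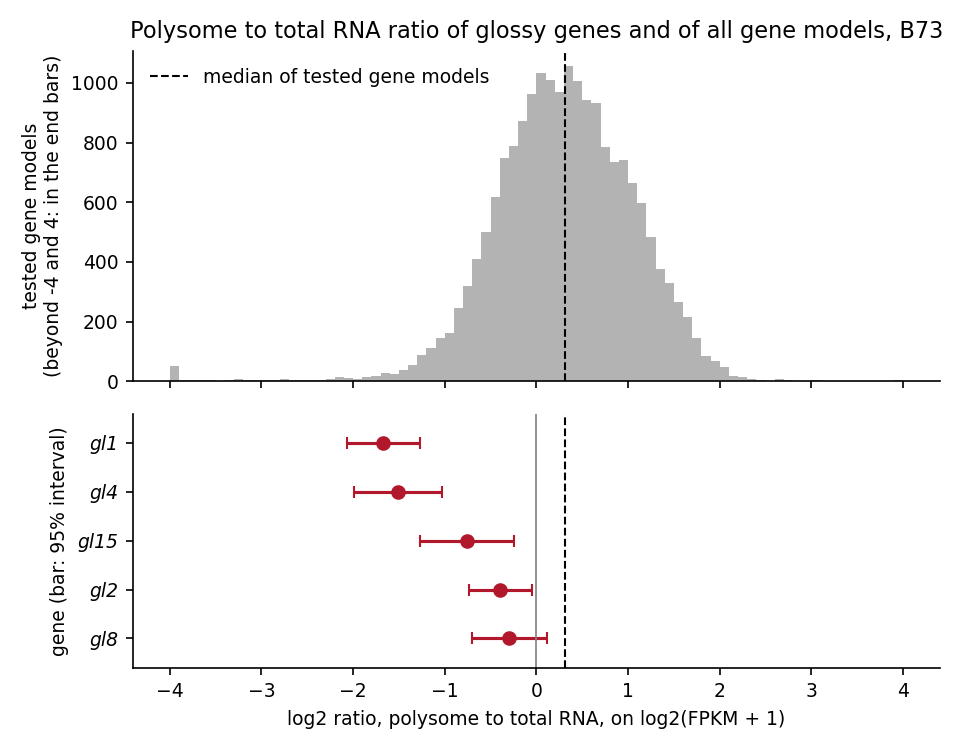
Upper panel: number of tested B73 gene models by log2 polysome to total RNA ratio, with their median as a dashed line. Lower panel: the ratio of each glossy gene (point) with its 95% limma interval (bar). All 5 points lie left of 0 and of the median (0.31 over gene models), and the interval of gl8 crosses 0.

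The order of the genes by level was the same in both kinds of RNA, but their distances changed. In polysome RNA gl2 was highest, followed by gl4, gl1, gl8 and gl15, and again no gene's libraries overlapped those of the next. In total RNA gl1 stood at 49.5 FPKM and gl8 at 14.3; in polysome RNA they stood at 14.9 and 11.5. Ranked by mean polysome level among the same expressed gene models, gl2 was above 91.6% of them, gl4 above 78.7%, gl1 above 70.6%, gl8 above 64.5% and gl15 above 15.02%.

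**Figure D3:**
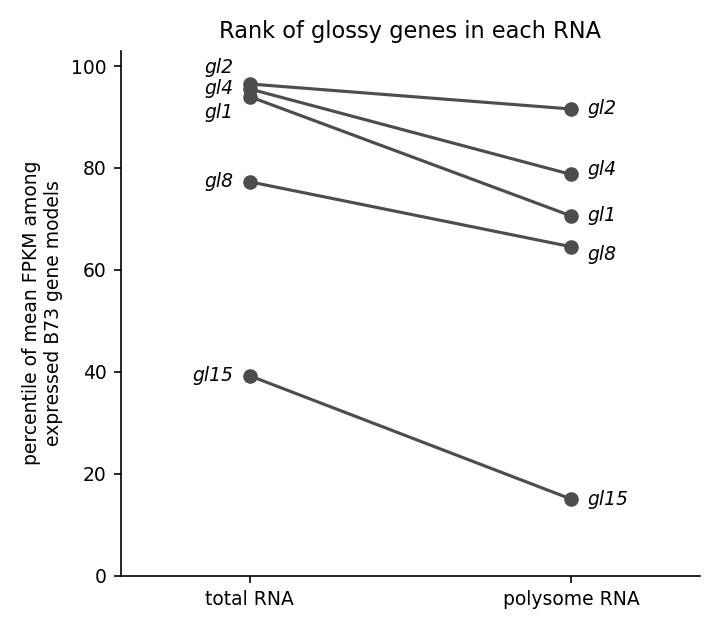
Percentile of the mean FPKM of each glossy gene among the 17218 expressed B73 gene models, in total RNA (left) and polysome RNA (right). Every line falls to the right: gl2 moves from 96.5% to 91.6%, and gl1 from 94.0% to 70.6%.

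No glossy gene had an m6A peak in both samples. Over expressed gene models, 50.9% had one in both lists, 5.81% in a single list and 43.3% in neither, where 4 of the 5 glossy genes stood. A gene was counted when the summit of a peak lay in its span and in no other. One of the 5, gl8, had a peak in a single list. It was called in m6A replicate 2 at chr5:185769183-185769235, with its summit 109 bp inside the 3′ end, at 96.3% of the way along the span. The authors' fold enrichment for it was 5.16 and the −log10 q was 7.80, and 22.2% of the 16161 peaks of that list had a lower fold. In replicate 1 the nearest peak to gl8 lay 8986 bp away.

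At gl2 a weak peak lay just outside the span. It was called in m6A replicate 1 at chr2:10743298-10743350, with its summit 194 bp past the annotated 3′ end. Its fold enrichment was 2.51 with a −log10 q of 4.21, and 1.58% of the 17399 peaks of that list had a lower fold. Replicate 2 had no peak within 16886 bp of gl2. For the other 3 genes both lists were empty over long distances. The nearest peaks lay 98250 and 98319 bp from gl1, 147860 and 147873 bp from gl4, and 274008 and 274001 bp from gl15. Annotated features were also far from some of them. The closest on the 5′ and 3′ sides lay 7269 and 1932 bp from gl1 and 55938 and 79989 bp from gl4. For gl15 they lay 107328 and 267934 bp away. The part of gene spacing in the distances to peaks was not tested.

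Span and RNA level go with peak calls, and their values differ among the 5. In the decile of span that holds gl1, 74.9% of expressed gene models had a peak in both lists, against 21.1% in that of gl4, 41.2% in that of gl2 and 58.0% in the decile that holds both gl8 and gl15. In the top decile of total RNA level, which holds gl1, gl2 and gl4, the share was 39.5%, and in those of gl8 and gl15 it was 58.6% and 52.5%. The part of span and level in the absence of peaks at these 5 genes was not tested. A gene without a called peak is not shown to lack m6A, since neither the control nor the depth behind the calls is stated in the labels.

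**Figure D4:**
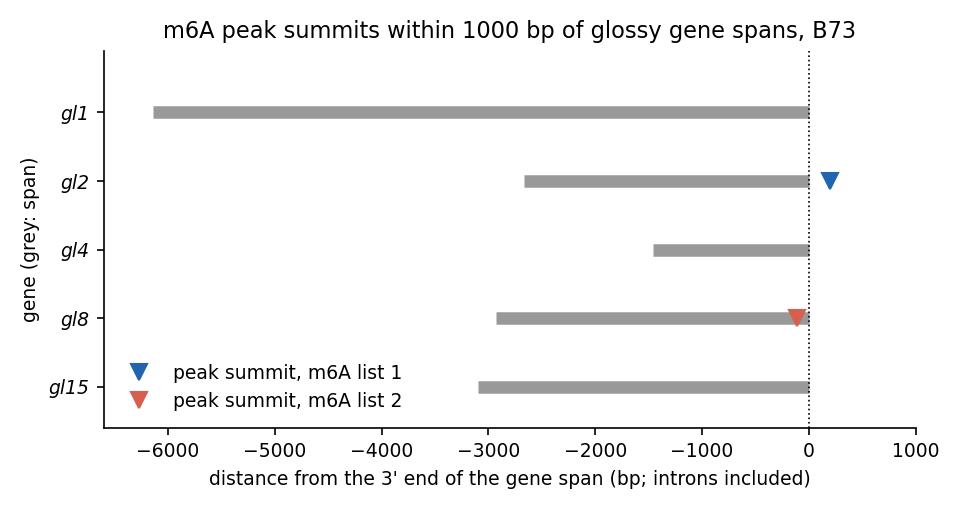
Spans of the 5 glossy genes (grey) drawn to scale against the distance from their 3′ end in bp, with the summits of m6A peaks within 1000 bp of a span (triangles, by m6A replicate). The plot holds 2 summits, 1 in gl8 (replicate 2) and 1 past the end of gl2 (replicate 1), and none of the peaks is shared.

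The microRNAs that time the juvenile phase were represented by their precursor genes. In maize, miR172 represses gl15 and miR156 acts upstream of it in keeping plants juvenile. The precursor genes were named by the tables themselves. All 4 MIR172 genes measured, MIR172b to MIR172e, were listed at 0 in the 4 libraries. Of 11 MIR156 genes measured, 5 were listed at 0 in the 4 libraries and 2 passed the filter on low values. Any other members of these families were not measured. MIR156e had 3.64 and 2.23 FPKM in total RNA and 0.243 and 0.424 in polysome RNA, a log2 ratio of -1.54 (95% interval -2.12 to -0.96; limma adjusted p = 0.00418). It left the tested set without either total RNA replicate, and without replicate 2 the number of MIR156 genes called was 0. Without replicate 1 the number was 1, which was then MIR156d (log2 ratio -1.20, limma adjusted p = 0.00272). MIR156d had 1.53 and 3.25 FPKM in total RNA and 1.10 and 0.622 in polysome RNA. Its log2 ratio of -0.83 (95% interval -1.55 to -0.11) did not pass (limma adjusted p = 0.0679). MIR156d, MIR156e and the precursors listed at 0 each overlap 1 other feature on their own strand, so reads of the precursor and of that feature cannot be told apart. A precursor listed at 0 also says little of the mature microRNA.

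Gene models with profiles most like the glossy genes were found by the smallest distance in log2(FPKM + 1) over the 4 libraries. For gl1 it was Zm00001d008727, at a distance of 0.42, with mean levels of 41.2 FPKM in total RNA and 15.2 in polysome RNA. For gl4 it was Zm00001d027486, at 0.28, with 63.4 and 21.8 FPKM. Both lacked a peak in either m6A list, as did the nearest gene model of gl2, while those of gl8 and gl15 had a peak in both. The distances to the nearest gene model were 0.17 for gl2, 0.11 for gl8 and 0.14 for gl15. Profiles like those of gl1 and gl4 were few: 45 and 44 gene models lay within a distance of 1, against 146 for gl2, 1305 for gl8 and 1769 for gl15. The distance takes in level as well as ratio, so these counts also depend on how many gene models share a level. The sources used here give these models no names.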

How the data were processed

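The submitters' processing notes name Trimmomatic 0.35, HISAT2, MACS2 and the build B73 RefGen_v4. No source used here states how FPKM were computed, the annotation, the strand setting or the MACS2 control. The authors deposited FPKM per gene, 1 table per sample, and 1 peak list per m6A sample with fold enrichment (a ratio), −log10 p, −log10 q, an integer score and the summit offset. These lists were used as deposited to describe peaks. FPKM carry no depth, so no counting interval is given.

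Of 45578 features per table, 1 with unequal spans across tables was dropped. The B73 polysome and total RNA libraries (2 each) entered limma 3.58.1 with a variance trend, in R 4.3.3, as log2(FPKM + 1), over all features with at least 1 FPKM in at least 2 of the 4 libraries. Two-sided p-values were adjusted by Benjamini-Hochberg, and a call needed an adjusted value under 0.05 together with a log2 ratio of 1 or more in size. Ratios on this scale understate changes of weak genes. The fit was tested on simulated data whose spread was taken from the fit itself. That simulation had no shift in library composition between the groups, so it does not bear on the choice of scaling. Exact permutation of 2 against 2 libraries cannot go below p = 0.333 and was not used.

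All 5 glossy genes were named whatever their values, and others by the smallest distance of their profile. The members and lists were chosen with earlier results of these data known. Lists of other wax, AP2-like and SPL genes had 0 measured members, since the reference table (RefSeq, Zm-B73-REFERENCE-NAM-5.0) holds 0 of the B73 gene model identifiers. No sequence is shown, and none was used here. Alternatives covered the pseudocount, filter, scaling, trend, block, left-out libraries, peak threshold and overlap.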

Additional observations from a re-analysis of the deposited data

How the results depend on the processing

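The 5 log2 ratios stayed below 0 in every alternative in which the gene was tested: 13 each for gl1, gl2, gl4 and gl8, and 12 for gl15, which the filter of at least 5 FPKM removed. The calls of gl1 and gl4 passed in all 13, with ratios of -2.26 to -1.57 and -2.11 to -1.27. The count of 2 glossy genes called lower became 4 with an equal sum over gene models, 3 with median of log ratios scaling and 3 by the adjusted p alone, a rule added after the data were seen, which gave 5 at either scaling. Without a single library it was 2 each time, but a lone library is there assumed to vary like the other group, so this is weak evidence of stability. Scaling also moved the mean total RNA levels. The ratio of gl15 passed the call at both scalings (-1.05 and -1.21), that of gl2 at the equal sum (-1.001). The labels do not say that replicate numbers pair libraries, and deviations of same-numbered libraries correlated at -0.13. With a replicate block 2 glossy genes were called lower, and with crossed numbers as the block, added after the data were seen, also 2. The share of all features called is given only for the main setting and both scalings, so counts at other settings have no background beside them. Of the MIR156 and MIR172 genes, 2 were tested at the main setting and at both scalings. The number called lower was 1 at the main setting, against 5.36% of all features. It was 2 with median of log ratios scaling, against 9.18%, and 2 with an equal sum over gene models, against 13.0%. With at least 5 FPKM neither was in the tested set, so the 0 there was fixed in advance. Fits with a library left out are described with the precursor genes above. Glossy genes with a peak in both m6A lists numbered 0 with any overlap with the span, and a single list gave 0 or 1. Peaks of at least 5-fold enrichment or with a −log10 q of at least 10 also gave 0. Such limits can only remove peaks, so that 0 was fixed by the main count. An overlap of 50% of each peak gave 0 as well, since no glossy gene had peaks of both lists within 1000 bp. Shares of all gene models at these settings are not given. The 4 genes above the 75th percentile of total RNA level numbered 4 at both scalings and 5 when ranked among all gene models. Depth is unknown, so how far it limits the values of gl15 and the peak calls is not known.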
